A study of Homo sapiens with 9 samples.

Results

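PHF6 is a nuclear plant homeodomain (PHD) finger protein with extended PHD domains, and its gene is inactivated by mutation in a share of T-lineage acute lymphoblastic leukemias (T-ALL). It binds the nucleosome remodeling and deacetylase (NuRD) complex. NuRD couples an ATP-driven nucleosome remodeler (*CHD3* or *CHD4*) to histone deacetylases (*HDAC1*, *HDAC2*), which are held together by MTA scaffold proteins (*MTA1*, *MTA2*), histone-binding WD40 proteins (*RBBP4*, *RBBP7*) and a methyl-CpG-binding domain protein (*MBD3*). The question addressed here is whether the transcripts of these partners moved when *PHF6* itself was lowered.

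The members were all array probes whose transcript identifier matched *PHF6* or one of these NuRD genes. There were 13 such probes of 57176 on the array, and they covered 9 of the 10 genes, 1 probe for *PHF6* and 12 for 8 NuRD partners. No probe was matched to *MBD3*. All 13 probes were well above background on all 9 arrays and none was lost to the filter on low signal, which kept 33625 probes. The brightest probe stands for each gene, and the other probes of *RBBP4* and *HDAC2* are given as well.

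RNA came from ALL-SIL, an established T-ALL cell line, electroporated with a non-targeting control siRNA, *PHF6* siRNA1 or *PHF6* siRNA2. There were 3 independent replicates of each of these 3 groups. Cells were harvested at 96 h according to most labels, while a free-text description gives 72 h. One of the *PHF6* reagents was a single Silencer Select siRNA and the other an ON-TARGETplus SMARTpool, which is a mixture, and the text does not say which of them is siRNA1. All groups, control included, went through electroporation, and no array of untouched cells was analysed here. Knockdown of this kind is transient and acts in a single cell line, and the arrays measure RNA, not protein. In a bulk sample, fewer cells expressing a gene and less RNA per cell cannot be told apart.

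Levels are given on a generalized log2 scale after variance stabilization. A difference of 1 is a doubling or halving of the signal where it is far above background, but not for dim probes. Levels of different probes cannot be ranked against each other, because each probe has its own brightness. The replicate number was a block in the comparison, since samples of the same number deviated together. A change was called at an adjusted p under 0.05 over all tested probes (limma, Benjamini-Hochberg). Between 29690 and 33781 probes were well above background per array and no spot was saturated. By the last number of the array barcode, control arrays lay in position 1, siRNA1 in position 3 and siRNA2 in position 4, so position and group cannot be told apart. Replicates 1 and 2 have the same positions on slide 1, so this number gives only part of the place on a slide. Arrays of the same replicate number always shared a slide. The labelled cell type was borne out by its markers, as 8 of 8 T-ALL markers, *CD3D* and *TLX1* among them, were well above background on all 9 arrays.

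*PHF6* transcript fell to 30.3% of its control level under the siRNAs. In replicates 1, 2 and 3 the normalized *PHF6* level was 11.07, 11.16 and 10.86 with control siRNA. It was 9.40, 9.69 and 9.13 with siRNA1. With siRNA2 it was 9.20, 9.28 and 9.14. All 6 siRNA arrays lay far below all 3 control arrays, with no overlap. The same was visible before normalization, where the probe's median intensity was 2015 to 2182 on the control arrays and 576 to 742 on the siRNA arrays. For both siRNAs together the log2 fold change was -1.72 (95% confidence interval -1.93 to -1.52), with an interval of 26.3% to 34.9% for the remaining level, and an adjusted p of 7.12e-05. This was the lowest p of all 33625 tested probes and the fourth most negative log2 fold change, in a comparison where 2.86% of all tested probes were called, 1.96% higher and 0.898% lower. An exact two-sided permutation of the control position within replicate numbers gave p = 0.037, the smallest that its 27 arrangements allow, and *CHD3* and *MTA2* below reached the same p.

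Each siRNA alone lowered *PHF6*. With siRNA1 the level was 32.5% of control (log2 fold change -1.62, 95% confidence interval -1.86 to -1.39, adjusted p = 0.00052). With siRNA2 it was 28.3% of control (log2 fold change -1.82, 95% confidence interval -2.06 to -1.59, adjusted p = 0.000183). The difference of siRNA2 from siRNA1 was -0.20, -0.41 and 0.01 in replicates 1, 2 and 3. Its mean of -0.20 had an interval of -0.43 to 0.04 and did not pass the test (adjusted p = 0.571). The fall was -1.72 on slide 1, which holds replicates 1 and 2, and -1.73 on slide 2, which holds replicate 3.

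None of the 8 measured NuRD partners changed past the threshold. This held for both siRNAs together, for siRNA1, for siRNA2 and for siRNA2 against siRNA1, and 0 of the 12 partner probes were called in any of these comparisons. The share of all tested probes called was 2.86%, 1%, 1.68% and 0.0387% respectively, so that 0 of 12 is near the background in each. At an unadjusted p under 0.05, 2 of 12 partner probes (*CHD3* and *MTA2*) passed for both siRNAs, 0 for siRNA1, 1 (*CHD3*) for siRNA2 and 0 for siRNA2 against siRNA1, beside 21.8%, 19.3%, 19.5% and 9.68% of all tested probes. Over the 8 partner genes the log2 fold change for both siRNAs ran from -0.21 to 0.26 with a median of -0.06, 3 being above 0 and 5 below. Over 14713 genes with 1 probe each the median was -0.03, and the 10th to 90th percentile ran from -0.23 to 0.20.

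**Figure D1:**
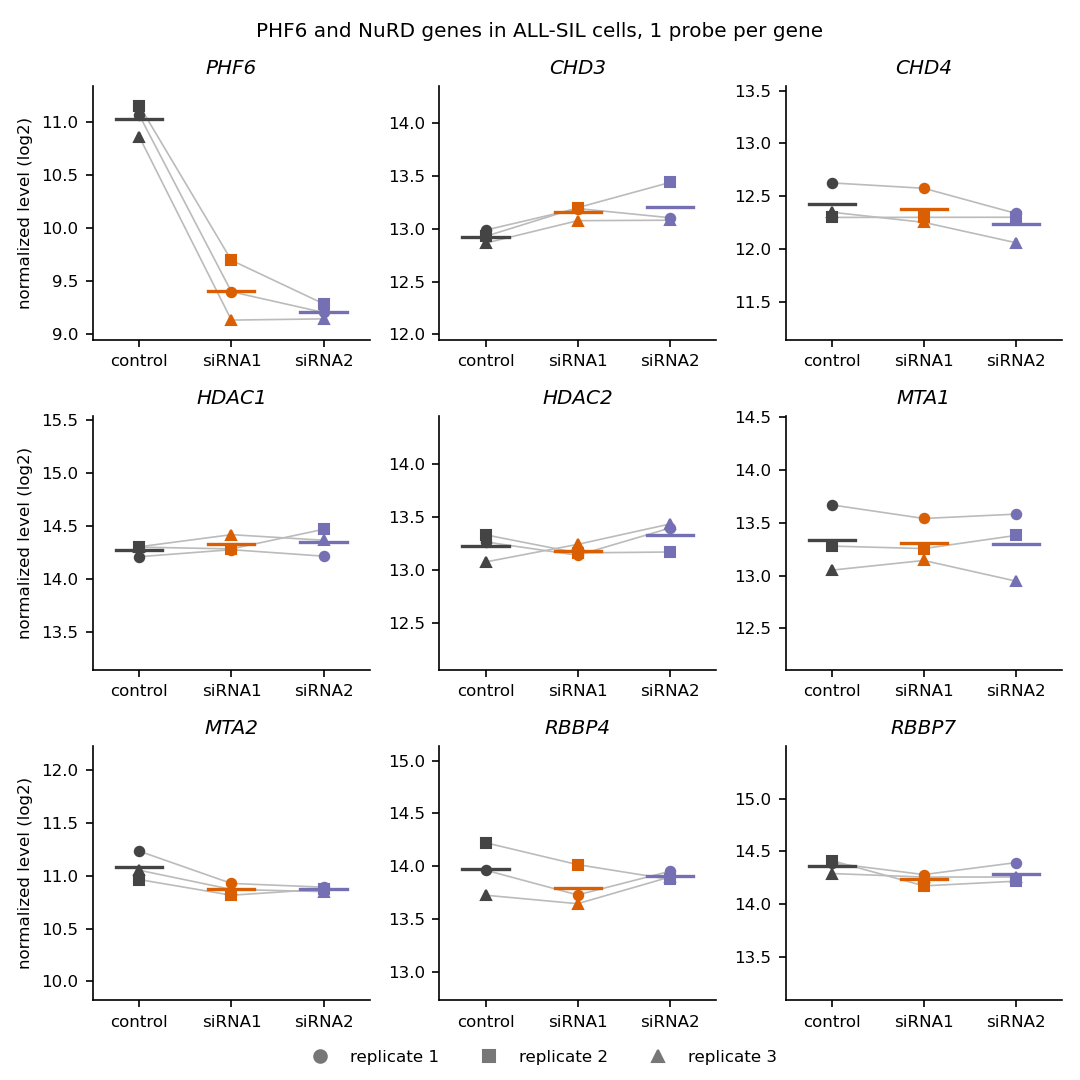
Normalized level (log2, y axis) of *PHF6* and 8 NuRD genes, 1 probe per gene, on the 9 arrays by group (x axis). Points are arrays, grey lines join arrays of the same replicate number and horizontal bars are group means, and all panels have the same span. *PHF6* drops from between 10.86 and 11.16 to between 9.13 and 9.69, while none of the NuRD genes shown spans more than 0.72 log2 units over the 9 arrays.

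The remodelers had log2 fold changes of opposite sign, neither past the threshold. *CHD3*, an ATPase of the complex, had levels of 12.99, 12.93 and 12.86 with control siRNA, of 13.19, 13.20 and 13.08 with siRNA1, and of 13.10, 13.44 and 13.08 with siRNA2. The 6 siRNA arrays were all above their own control and did not overlap with the controls. Its log2 fold change was 0.26 (95% confidence interval 0.05 to 0.46), or 119% of control, with an adjusted p of 0.143. Without the replicate block, where 0.00892% of all tested probes were called, the adjusted p was 0.688. Of all probes with a value on every array, 1.93% had siRNA arrays entirely above the controls and 10.9% had 6 of 6 siRNA arrays above their own control.

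*CHD4*, the alternative ATPase, had 12.63, 12.30 and 12.35 with control siRNA, 12.58, 12.30 and 12.25 with siRNA1, and 12.34, 12.30 and 12.06 with siRNA2. The groups overlapped, and in replicate 2 siRNA1 and siRNA2 differed from control by 0.0007 and 0.0016. The log2 fold change was -0.12 (95% confidence interval -0.31 to 0.07, adjusted p = 0.451) for both siRNAs. It was -0.05 for siRNA1 and -0.19 for siRNA2, and the difference of -0.14 between them had an interval of -0.37 to 0.08 (adjusted p = 0.661).

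The deacetylases stayed close to control. *HDAC1* had 14.21, 14.30 and 14.30 with control siRNA, 14.28, 14.28 and 14.42 with siRNA1, and 14.22, 14.47 and 14.37 with siRNA2. These values overlapped, and the log2 fold change was 0.07 (95% confidence interval -0.12 to 0.25, adjusted p = 0.685). This probe is printed in 5 spots on each array, and 2 of its spot readings marked as outliers were left out of the average.

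*HDAC2*, the paralogous deacetylase, was read by a bright probe (A_23_P122304, 5 spots) and a dim one (A_33_P3309924, 1 spot). The bright probe had 13.27, 13.33 and 13.08 with control siRNA, 13.14, 13.16 and 13.24 with siRNA1, and 13.40, 13.17 and 13.43 with siRNA2. Its log2 fold change of 0.03 (95% confidence interval -0.19 to 0.25, adjusted p = 0.881) combined -0.08 on slide 1 with 0.26 on slide 2. Slide 2 holds replicate 3 alone, so slide and replicate cannot be told apart. Within slide 1, siRNA2 differed from control by 0.13 in replicate 1 and by -0.16 in replicate 2. The dim probe had 7.16, 7.29 and 6.87 with control siRNA, 6.97, 6.98 and 6.80 with siRNA1, and 7.38, 7.003 and 7.16 with siRNA2. It gave -0.06 (95% confidence interval -0.30 to 0.18, adjusted p = 0.782), again with the slides in opposite directions (-0.14 and 0.11).

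Both *HDAC2* probes read higher with siRNA2 than with siRNA1 in 3 of 3 replicates. The difference was 0.26, 0.01 and 0.19 in replicates 1, 2 and 3 on the bright probe and 0.42, 0.02 and 0.36 on the dim one. Neither passed the test. The mean difference was 0.15 (95% confidence interval -0.10 to 0.41, adjusted p = 0.682) on the bright probe and 0.27 (95% confidence interval -0.01 to 0.54, adjusted p = 0.524) on the dim one.

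Neither of the MTA scaffolds passed the threshold. *MTA2*, which recruits deacetylases into the complex, had 11.23, 10.96 and 11.05 with control siRNA, 10.93, 10.81 and 10.87 with siRNA1, and 10.89, 10.87 and 10.85 with siRNA2. All 6 siRNA arrays were below their own control and below every control array, the nearest gap being that between 10.93 and 10.96. The log2 fold change was -0.21 (95% confidence interval -0.39 to -0.03), or 86.4% of control, with an adjusted p of 0.173, and of 0.722 without the replicate block. It was -0.21 with each siRNA. Of all probes, 1.95% had siRNA arrays entirely below the controls and 10.6% had 6 of 6 below their own control.

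*MTA1*, the related scaffold, varied by replicate rather than by group. Its level was 13.67, 13.28 and 13.05 with control siRNA, 13.54, 13.26 and 13.14 with siRNA1, and 13.58, 13.38 and 12.95 with siRNA2. Replicate 1 was the highest and replicate 3 the lowest in every group, and the replicate means of 13.60, 13.30 and 13.05 spanned 0.55. The group means, 13.33 ± 0.31, 13.31 ± 0.20 and 13.30 ± 0.32 (SD, n = 3), were nearly level, and the log2 fold change was -0.03 (95% confidence interval -0.22 to 0.17, adjusted p = 0.897).

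Neither of the histone-binding subunits passed the threshold. *RBBP7* had 14.39, 14.41 and 14.29 with control siRNA, 14.28, 14.17 and 14.26 with siRNA1, and 14.39, 14.22 and 14.26 with siRNA2. The siRNA1 arrays lay below all controls, as they did for 5.6% of all probes with a value on every array, and the siRNA2 arrays overlapped with the controls. The log2 fold change was -0.10 (95% confidence interval -0.28 to 0.08, adjusted p = 0.510). *RBBP7* and its close paralog *RBBP4* also serve complexes other than NuRD.

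*RBBP4* was read by 4 probes, which share their target and are not independent measurements. The brightest (A_33_P3338559) had 13.96, 14.22 and 13.73 with control siRNA, 13.73, 14.02 and 13.65 with siRNA1, and 13.95, 13.88 and 13.90 with siRNA2. Its log2 fold change was -0.12 (95% confidence interval -0.34 to 0.11, adjusted p = 0.530). The groups overlapped on this probe and on the other 3, whose log2 fold changes were -0.09 (A_23_P326691), 0.08 (A_24_P468810) and -0.08 (A_33_P3232562), with adjusted p between 0.627 and 0.690. The probes therefore disagreed in sign. On the brightest probe the value was -0.20 on slide 1 and 0.05 on slide 2.

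**Figure D2:**
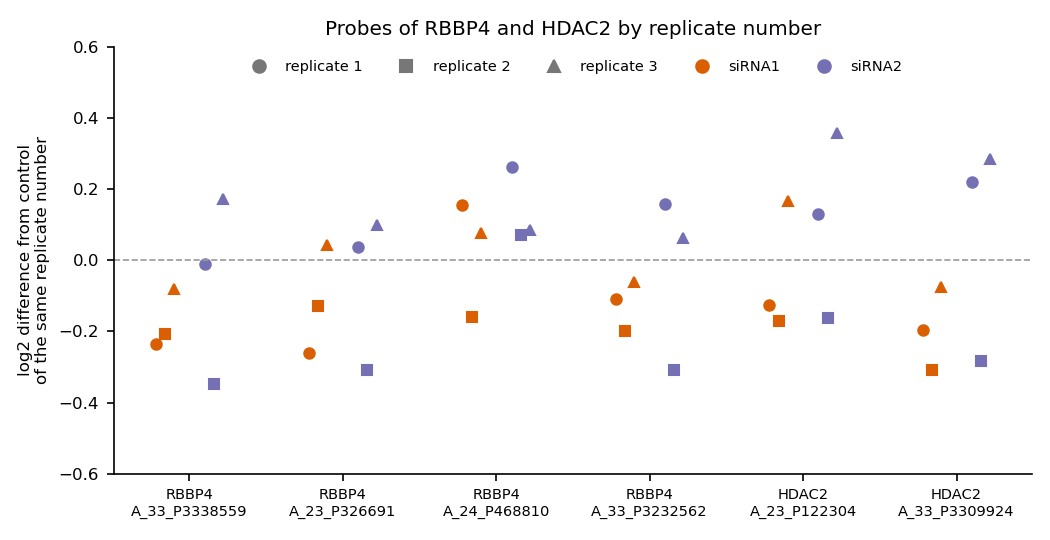
Log2 difference of each siRNA array from the control array that carries its replicate number (y axis) for the 4 *RBBP4* and 2 *HDAC2* probes (x axis), with colours for the siRNAs and symbols for the replicates. The points fall on both sides of 0 for every probe, and in replicate 2 siRNA2 lies below 0 on 5 of the 6 probes.

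In replicate 2 the difference from control was below 0 on most of these probes with either siRNA. Both siRNAs are set there against the same control array, so they are not separate readings. That array had the highest level of the 3 controls on every probe shown except A_24_P468810. In replicate 1 siRNA1 gave -0.23 (A_33_P3338559), -0.26 (A_23_P326691), 0.15 (A_24_P468810) and -0.11 (A_33_P3232562) on the *RBBP4* probes. In replicate 2 the difference of siRNA1 from control was between -0.21 and -0.13 on the 4 *RBBP4* probes, and -0.17 and -0.31 on the *HDAC2* probes. That of siRNA2 in replicate 2 was -0.35, -0.31 and -0.31 on 3 *RBBP4* probes and 0.07 on A_24_P468810. On the *HDAC2* probes it was -0.16 and -0.28, whereas replicate 3 with siRNA2 gave 0.36 and 0.29. On both genes the replicates differed from each other by more than the mean change.

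**Figure D3:**
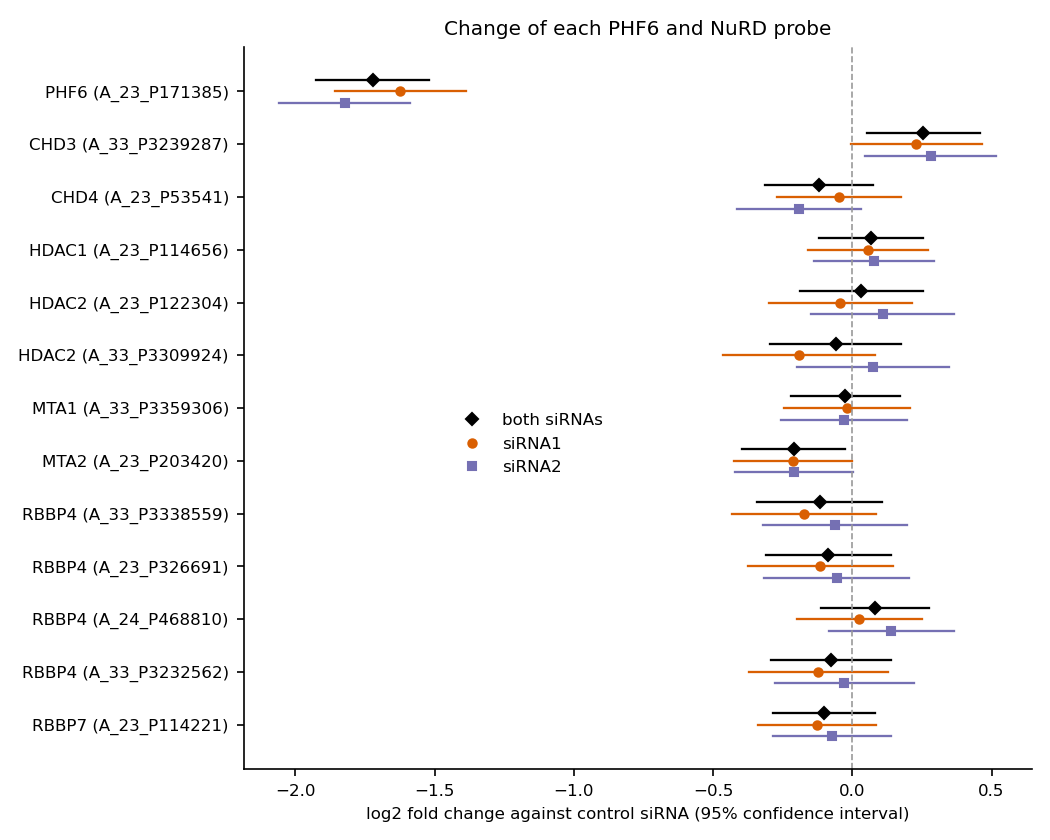
Log2 fold change against control siRNA (x axis) with its 95% confidence interval for each of the 13 probes (y axis), for both siRNAs together, siRNA1 and siRNA2. The *PHF6* intervals lie between -2.06 and -1.39, and the interval for both siRNAs leaves out 0 only for *PHF6*, *CHD3* and *MTA2*.

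The intervals bound how far a partner transcript could have moved. For both siRNAs together the 8 intervals lay between -0.39 and 0.46, that is between 76.1% and 137% of control. For siRNA1 alone they lay between 74.1% and 138%, and for siRNA2 alone between 74.6% and 143%. A fall of the size seen for *PHF6* lies outside every one of them. Judged by the least significant probe that was called, a partner probe would have needed a log2 fold change of 0.36 to 0.46 in either direction to pass for both siRNAs, 0.48 to 0.62 for siRNA1 and 0.45 to 0.58 for siRNA2. These limits are those of the fit with the replicate block.

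Between the siRNAs, the partner genes differed by -0.14 (*CHD4*) to 0.15 (*HDAC2*), and the 8 intervals lay between -0.37 and 0.41. Comparisons of siRNA1 and of siRNA2 with control share their control arrays. For *CHD3* the values were 0.23 and 0.28, for *MTA2* -0.21 and -0.21, for *HDAC1* 0.05 and 0.08, for *MTA1* -0.02 and -0.03, for *RBBP4* -0.17 and -0.06, and for *RBBP7* -0.13 and -0.07. *HDAC2* was the only partner gene with opposite signs, at -0.04 for siRNA1 and 0.11 for siRNA2 on the bright probe and -0.19 and 0.07 on the dim one, and *CHD4* is given above.

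Lists of other genes around PHF6 and NuRD were examined in the same way. They held 55 genes in 6 lists, of which 52 were tested and 0 were called for both siRNAs, for siRNA1 or for siRNA2, beside 2.45%, 0.884% and 1.56% of the 14713 genes with 1 probe each. At an unadjusted p under 0.05 there were 6 of 52 for both siRNAs, beside 21.8% of all tested probes. Over the 52 genes the median log2 fold change was -0.04, with 22 above 0 and 30 below.

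The 6 other NuRD subunits were all tested, with a median of -0.15. *MTA3*, another scaffold paralog, had a log2 fold change of 0.31 (adjusted p = 0.166). *GATAD2A*, which links the methyl-CpG-binding protein to the remodeler, had -0.23 (adjusted p = 0.143), and *CDK2AP1*, a small subunit, had -0.20 (adjusted p = 0.231). None of these passed the threshold, and their directions differed.

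PHF6 is also reported to bind the PAF1 transcription elongation complex and UBTF, a factor of ribosomal RNA transcription. Their 7 genes had a median of -0.08, the farthest from 0 being *LEO1* (-0.30, adjusted p = 0.222), *CDC73* (0.20, adjusted p = 0.303) and *SKIC8* (-0.17, adjusted p = 0.340). *UBTF* itself was at -0.01.

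Among the deacetylase complexes that share *HDAC1* and *HDAC2* with NuRD, the 13 genes of the SIN3 complex had a median of -0.05 and the 8 of the CoREST complex -0.06. The SIN3 genes farthest from 0 were *SUDS3* (0.15), *SAP30* (-0.15) and *ARID4B* (0.11). In CoREST, *KDM1A*, the histone demethylase, had -0.18 and *PHF21A* had 0.14.

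Of 9 genes in other complexes that use *RBBP4* or *RBBP7*, 8 were tested, with a median of -0.01. *BPTF*, the largest subunit of the NURF remodeler, had 0.35 (95% confidence interval 0.12 to 0.58), and its adjusted p of 0.0944 was the lowest in the 6 lists among brightest probes. *SMARCA1*, the NURF ATPase, had 0.26 (adjusted p = 0.193), at low levels (4.53 to 5.20) and well above background on 7 arrays only. Its paralog *SMARCA5* had -0.17. The 10 measured genes among 12 other proteins with extended PHD domains had a median of 0.08 by brightest probe, from *PHF14* at -0.17 to *MLLT10* at 0.15. The less bright *MLLT10* probes gave -0.0075 (A_24_P406714) and 0.00078 (A_33_P3355071), and the less bright *PHF14* probe gave -0.10. Farthest from 0 among the less bright probes of this list was that of *MLLT6*, at 0.31 (adjusted p = 0.148), beside 0.05 on its brightest.

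**Figure D4:**
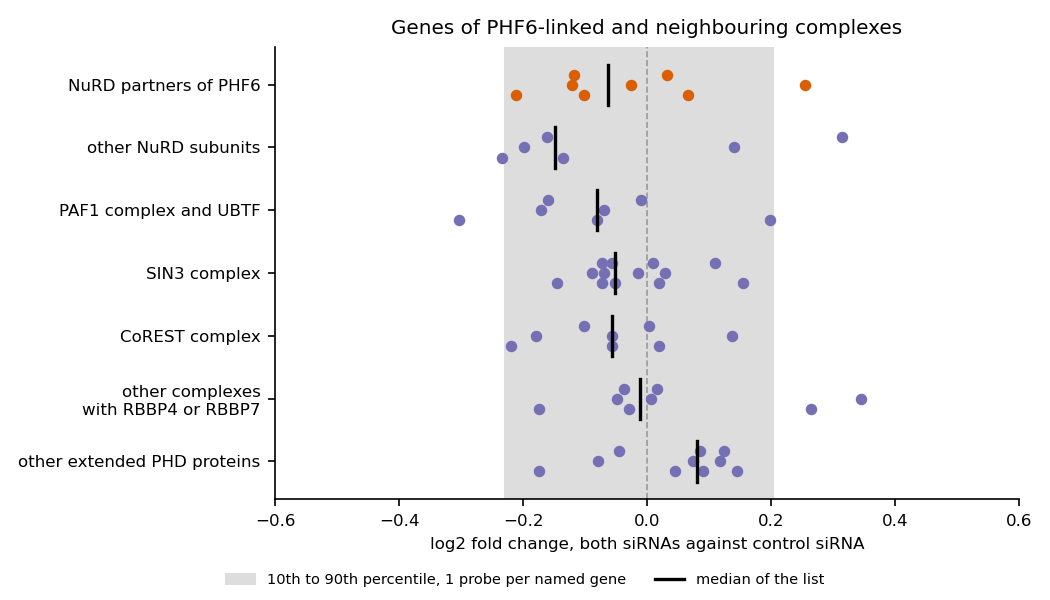
Log2 fold change for both siRNAs against control (x axis) of the NuRD partners and of the genes of 6 further lists (y axis); each point is a gene by its brightest probe, black bars are list medians, vertical offsets only separate points, and the grey band is the 10th to 90th percentile of 14713 genes, -0.23 to 0.20. List medians run from -0.15 to 0.08 and 0 of the genes shown was called.

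Over the 9 arrays, the genes whose level followed *PHF6* most closely were *PGLS* (Pearson r = 0.974), *CTSW* (0.966), *IGLL1* (0.956), *DPEP1* (0.952) and *HCST* (0.951), among 13243 genes well above background on every array. The most opposite were *KRTAP5-6* (-0.942), *SAR1B* (-0.927), *TK2* (-0.927), *OR5A1* (-0.919) and *OR2AG1* (-0.908). Levels were low for *KRTAP5-6* (5.07 to 5.70), *OR5A1* (5.48 to 6.26) and *OR2AG1* (5.92 to 6.35). *KRTAP5-6* (adjusted p = 0.0544) and *OR2AG1* (adjusted p = 0.0669) were not called for both siRNAs against control. These coefficients are descriptions over 9 arrays that share the contrast between control and siRNA, so they mostly order genes by how cleanly the groups separate. *PGLS*, an enzyme of the pentose phosphate pathway, had 13.73, 13.78 and 13.62 with control siRNA and between 13.34 and 13.38 on the 6 siRNA arrays.

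Of the NuRD partners, *MTA2* followed *PHF6* most closely (r = 0.78, place 228 of 13243) and *CHD3* least (r = -0.69, place 13046). *RBBP7* (0.55), *RBBP4* (0.44), *CHD4* (0.41), *MTA1* (0.11), *HDAC2* (-0.19) and *HDAC1* (-0.44) lay between them. The coefficient was positive for the 5 genes with a negative log2 fold change and negative for the other 3, both being taken from the same arrays.

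Some lineage markers moved with *PHF6*, in a comparison where 2.45% of the 14713 genes with 1 probe each were called. Of the 8 T-ALL markers, *CD7* (log2 fold change -0.75, adjusted p = 0.012) and *PTCRA* (-0.72, adjusted p = 0.0076), the invariant chain of the pre-T cell receptor, fell, and the mean level over the list was 12.80 to 12.97 with control siRNA, 12.55 to 12.63 with siRNA1 and 12.51 to 12.72 with siRNA2. Of the NK cell markers, *NKG7* (-0.43, adjusted p = 0.0296) and *GNLY* (-0.55, adjusted p = 0.0245) fell and *NCR1* had 0.16 (adjusted p = 0.516), with mean levels over the 6 listed of 6.71 to 6.77, 6.41 to 6.74 and 6.54 to 6.80. *CD79B* (-0.47, adjusted p = 0.0395) fell among the B cell markers, whose list means of 7.12 to 7.23, 6.996 to 7.35 and 7.01 to 7.04 overlapped between control and siRNA1. The myeloid and erythroid lists had 0 called. Without the replicate block 0 genes of any marker list were called, beside 0.00892% of all tested probes. Of the 6 B cell markers, *PAX5* and *BLK* were well above background on 2 and 0 arrays, and of the 6 NK cell markers *NCAM1*, *KLRD1* and *FCGR3A* on 0 arrays. Their part in the *CHD3* and *MTA2* values was not tested.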

How the data were processed

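RNA of 9 ALL-SIL samples had been hybridised to 1-colour Agilent arrays of a custom design, 1 array per sample. The authors deposited the fluorescence intensity of each spot as read by Feature Extraction (version 10.5.1.1 per the file headers, 9.1 per the labels' processing notes), not normalized between arrays, and a VSN-normalized log2 table, used here as an alternative. Their 0 or 1 flags for outlier spots and for signal well above background, deposited as a score per spot, were used as filters.

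From the median intensities, the VSN model (trimmed quantile 0.9, 7 iterations) was fitted with code written for this purpose and tested on simulated data, since the vsn package was not at hand. Outlier spots were left out and repeated spots averaged. The test took in each probe called well above background on 3 or more arrays. It was run with limma 3.58.1 (R 4.3.3, statmod 1.5.0 for the random block) on all 9 arrays, which gave a common variance, with the replicate number as a block, because the comparison was defined as paired and the study paired its own RT-qPCR of these cells. The labels give the numbers. Deviations from the group means correlated across probes at 0.31 to 0.75 in the 9 sample pairs that share a number and at -0.57 to 0.13 in the other 18. P-values were adjusted by Benjamini-Hochberg over all tested probes. Array data have no read depth, and their number limits the precision. Symbols come from matching transcript identifiers to a RefSeq table, and no genome positions are given because the builds differ.

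Named genes are all members with every probe, the called genes and the 3 with the largest change of each list, and the 5 genes most and least correlated with *PHF6*. One list gene that this rule names is not reported here. The members and lists were chosen with earlier results of these data known. The alternatives were other blocks, scalings, filters and left-out arrays.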

Additional observations from a re-analysis of the deposited data

How the results depend on the processing

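*PHF6* stayed below control and past the threshold in all 24 alternatives for both siRNAs, with log2 fold changes of -1.80 to -1.62 and adjusted p of 6.53e-07 to 0.00878, and 0 NuRD partners and 0 genes of the other lists were called in any of them. Without the replicate block the log2 fold change of *PHF6* was unchanged and its adjusted p was 0.00219, whereas the number of all tested probes called for both siRNAs went from 960 to 3. Over all alternatives that number ran from 3 to 1865, being 45 without replicate 1 and 6 without replicate 2. For siRNA1 it ran from 3 to 840, for siRNA2 from 3 to 1236, and for siRNA2 against siRNA1 from 0 to 46. The count of 0 partners under the block rests on a fit that made 960 calls. *CHD3* ranged from 0.19 to 0.32 (adjusted p 0.0603 to 0.688) and *MTA2* from -0.26 to -0.16 (adjusted p 0.122 to 0.722), neither changing sign. *CHD4*, *HDAC1*, *RBBP7* and the brightest *RBBP4* probe also kept their signs. The values near 0 did not. *HDAC2* was -0.00636 with VSN on the processed signal and -0.0135 as the mean of its probes, and ran from -0.0824 to 0.132 when arrays or replicates were left out. *MTA1* was 0.0436 with normexp and quantile normalization, and ran from -0.0624 to 0.0162 over the left-out arrays. Over the same, the *RBBP4* probe A_33_P3232562 ran from -0.127 to 0.0130 and the *HDAC2* probe A_33_P3309924 from -0.142 to 0.0588. The median over the 8 partners, -0.06, was 0.02 with normexp and quantile normalization, and the median of all tested probes moved by at most 0.03 under any scaling. Among single list members, *BPTF* passed for siRNA2 with an intensity trend and robust prior (adjusted p = 0.0412), and a second probe of *HMG20B*, A_33_P3394599, chosen after its values were seen, had a log2 fold change of -0.50 (adjusted p = 0.0931) for both siRNAs and passed without siRNA2 replicate 2 (adjusted p = 0.0494). The cause of these differences was not tested.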
